A study of Bos taurus with 48 samples.

Results

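ANGPTL8, listed as C19orf80 in the bovine annotation (ENSBTAG00000009570), was followed in subcutaneous adipose tissue of Norwegian Red heifers. It is 1 of 24616 genes counted in 48 RNA-seq samples, with 24 heifers sampled at 12 months of age and a second time when 7 months pregnant, called gestation below. It was chosen by its measured values, because the study listed it among the genes that differed between LPHE and LPLE heifers at 12 months. All contrasts of ANGPTL8 between groups at 12 months, and all its changes from 12 months to gestation, are therefore given below as descriptions with no test.

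The heifers were fed 1 of 4 diets from 3 months of age until pregnancy was established, combining low or high protein (LP, HP) with high or low energy (HE, LE) into LPHE, HPHE, LPLE and HPLE, with 6 heifers each. Energy density was set by the roughage, which was silage ad libitum in HE and a restricted ration of silage with straw in LE, and protein level by both roughage quality and concentrate, so that HE and LE rations also differed in protein. Each diet held 3 heifers of a genetic group with high milk yield (HMY) and 3 of a group with low clinical mastitis (LCM). At 12 months the heifers were on these diets, whereas in gestation, at 20 to 24 months of age, all of them received a common low-energy feed ad libitum. Breeding began at a set body weight, which HE heifers reached earlier, so that former diet and age at the gestation sampling cannot be told apart.

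ANGPTL8 is a small secreted protein of the angiopoietin-like family, made in liver and adipose tissue and known to be induced by feeding and insulin. It acts together with other members of that family on lipoprotein lipase, the enzyme that frees fatty acids from circulating triglycerides for uptake into tissues. In ruminants, adipose tissue is the main site of fatty acid synthesis, with acetate as the principal carbon source.

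Reads on genes ranged from 14815595 to 59809633 per sample at 12 months and from 22430093 to 61027456 in gestation, and ANGPTL8 had reads in all 48 samples, from 474 to 19222 and from 46 to 10227, respectively. Levels are CPM, the counts relative to library size after scaling by the trimmed mean of M-values (TMM), and they compare samples, not genes, since no transcript length was used. Of 7 adipocyte markers, 2 could be matched to an identifier, the lipid droplet protein CIDEC and the adipokine leptin (LEP). Their summed level was between 888 and 3381 CPM in every sample. At 12 months its median was 2691 CPM in LPHE, 2980 in HPHE, 1448 in LPLE and 1948 in HPLE. Summed fibroblast markers (4 of 5 matched) had medians of 36800, 30630, 75770 and 48100 CPM in the same order. Identifiers came from genes listed as differing at 12 months, and the part of these markers in ANGPTL8 levels was not tested. Summed skeletal muscle markers (7 of 10 matched, among them ACTA1 and CKM) had group medians of 1.22 to 13.3 CPM. They exceeded 100 CPM in 4 samples, 1 each of HPHE and HPLE at each sampling, with a maximum of 342 CPM. In bulk tissue, fewer cells of a type and less RNA per cell cannot be told apart.

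At 12 months, ANGPTL8 was abundant in HE heifers and lower in most LE heifers. The lowest, median and highest LPHE heifers had 190, 319 and 523 CPM, and those of HPHE had 275, 353 and 690 CPM. In LPLE the corresponding levels were 19.1, 39.5 and 126 CPM, so no LPLE heifer reached the lowest LPHE heifer. In HPLE they were 42.7, 79.8 and 484 CPM. A single HPLE heifer, number 7, was at 484 CPM, within the HE range, and the other 5 HPLE heifers were at 42.7 to 135 CPM.

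The fitted log2 fold change at 12 months was 2.72 (SE 0.487) for LPHE-LPLE and 1.48 (SE 0.492) for HPHE-HPLE, with positive values meaning higher in HE. Without heifer 7 the HPHE-HPLE value was 2.32. Between protein levels at the same energy level, the log2 fold change was 0.31 (SE 0.458) for HPHE-LPHE and 1.55 (SE 0.492) for HPLE-LPLE. The HPLE-LPLE value includes heifer 7 and was not refitted without it. With that heifer the HPLE mean was 146 CPM, and without it 78.2 CPM (n = 5). These values belong to the samples on which the gene was selected and carry no test.

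**Figure D1:**
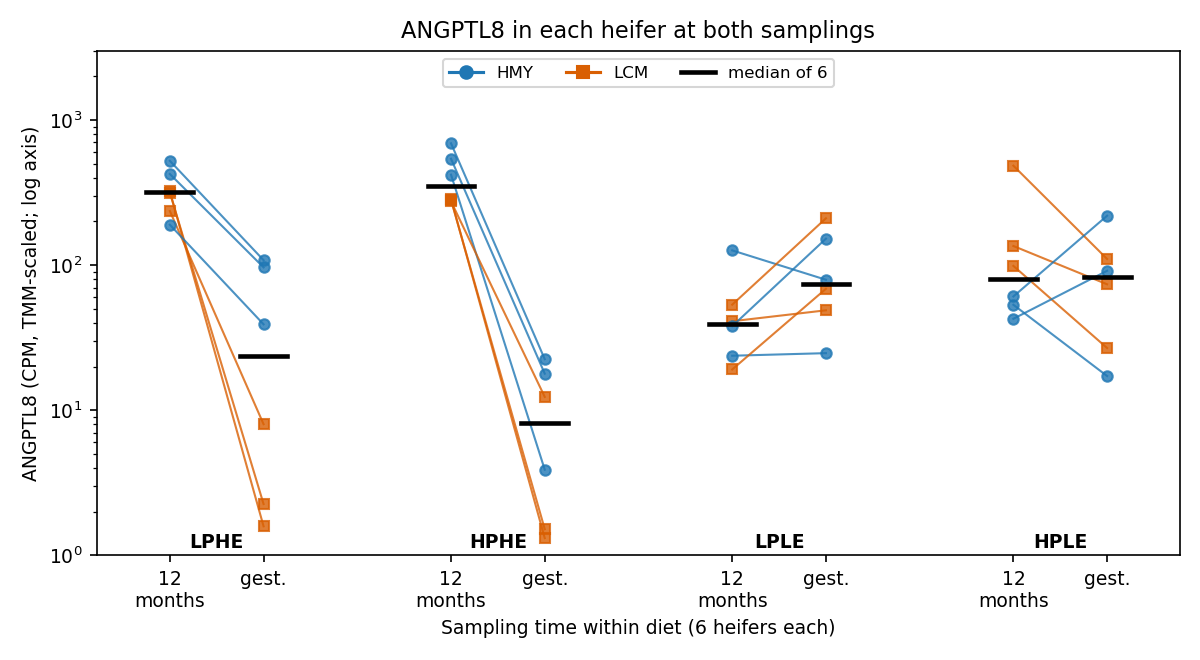
ANGPTL8 level (TMM-scaled CPM, log axis) of each heifer at 12 months and in month 7 of gestation, by diet. Each line joins the samples of 1 heifer, circles are HMY and squares LCM, and black bars are medians of 6; all 12 lines of the LPHE and HPHE heifers fall, while lines of LPLE and HPLE heifers go in both directions.

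In gestation ANGPTL8 was lower in former HE than in former LE heifers, and the lowest levels of the series were found in HE heifers. HPHE heifers had 1.31, 8.12 and 22.5 CPM (lowest, median and highest), and LPHE heifers 1.59, 23.6 and 108 CPM. LPLE heifers had 24.7, 74.0 and 210 CPM, and HPLE heifers 17.2, 82.6 and 219 CPM. The HPHE range overlapped that of HPLE only between 17.2 and 22.5 CPM, and LPHE heifers spread over the ranges of both HPHE and LPLE.

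Over both protein levels, ANGPTL8 was down-regulated in HE compared with LE heifers in gestation, with a log2 fold change of -2.73 (SE 0.546, 6.62-fold lower, FDR = 0.000135 by the likelihood ratio test of edgeR, n = 12 per energy level). Of 13403 genes tested, 2.66% were called lower and 1.08% higher in HE at an FDR of 0.05. The mean of log2(CPM + 0.5) differed by -2.77 between the energy levels (p = 0.00085 in a two-sided permutation test within protein level, 100000 resamples). The value was 0.00555 after adjustment over 10 permutation tests of contrasts of this gene. The 3 of these contrast tests that use 12-month samples are not given. The permutation tests of heifer ranks, given below, also use 12-month samples and were not part of this adjustment. The HE-LE contrast in gestation used none of the 12-month samples on which the gene was selected, though earlier results of these data were known when the gene was chosen.

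Within the high-protein diets, HPHE was lower than HPLE by a log2 fold change of -3.40 (SE 0.748, 10.6-fold, FDR = 0.0033 in edgeR), where 0.948% of genes were called at an FDR of 0.1. The two-sided exact permutation test gave p = 0.00649 (0.0216 adjusted), the smallest value attainable with 6 against 6 being 0.00216. With the quasi-likelihood F test of edgeR in place of the likelihood ratio test, the FDR was 0.187 and 0 genes were called in this contrast (1216 at an unadjusted p under 0.05, and 173 called by DESeq2, where the FDR of ANGPTL8 was 0.0107). Within the low-protein diets, the log2 fold change of LPHE-LPLE was -2.05 (SE 0.778) and did not pass (FDR = 0.275 in edgeR, 1.05% of genes called), and the exact permutation test gave p = 0.0866 (0.144 adjusted). LPHE heifers were higher in 9 of the 36 pairings of an LPHE with an LPLE heifer. Without LPLE heifer 18, the FDR of LPHE-LPLE was 0.0798.

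The energy difference was not shown to depend on protein level, since the interaction was 1.35 (95% interval -0.62 to 3.32, FDR = 1 in edgeR, 0.00746% of genes called). Neither protein contrast within an energy level passed in gestation. HPHE-LPHE had a log2 fold change of -1.71 (95% interval -3.13 to -0.29, FDR = 1, 0.00746% of genes called), or -1.07 with only the 12 samples of the contrast in the fit, and HPLE-LPLE of -0.36 (95% interval -1.70 to 0.98, FDR = 1, 0.0746% called).

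Pooled over energy levels, HP-LP was 0.93 at 12 months (SE 0.331, a description), and 0.50 without heifer 7. In gestation it was -1.03 (SE 0.488, FDR = 1 in edgeR, 0.0746% of genes called), and -0.61 without heifer 8. The two-sided permutation test within energy level gave p = 0.274 in gestation (0.371 adjusted), so that a protein difference was not established there. In gestation the skeletal muscle marker MYH2 was at 10.2 in HP-LP. Its highest levels were 0 CPM in LPHE and 0.028 in LPLE, beside 84.95 in HPHE and 48.34 in HPLE. It thus passed the filter of 2 CPM only through HP heifers, and its value is a description with no test. Without the samples over 100 CPM of skeletal muscle markers HP-LP of ANGPTL8 was -0.93 (FDR = 1 in edgeR).

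**Figure D2:**
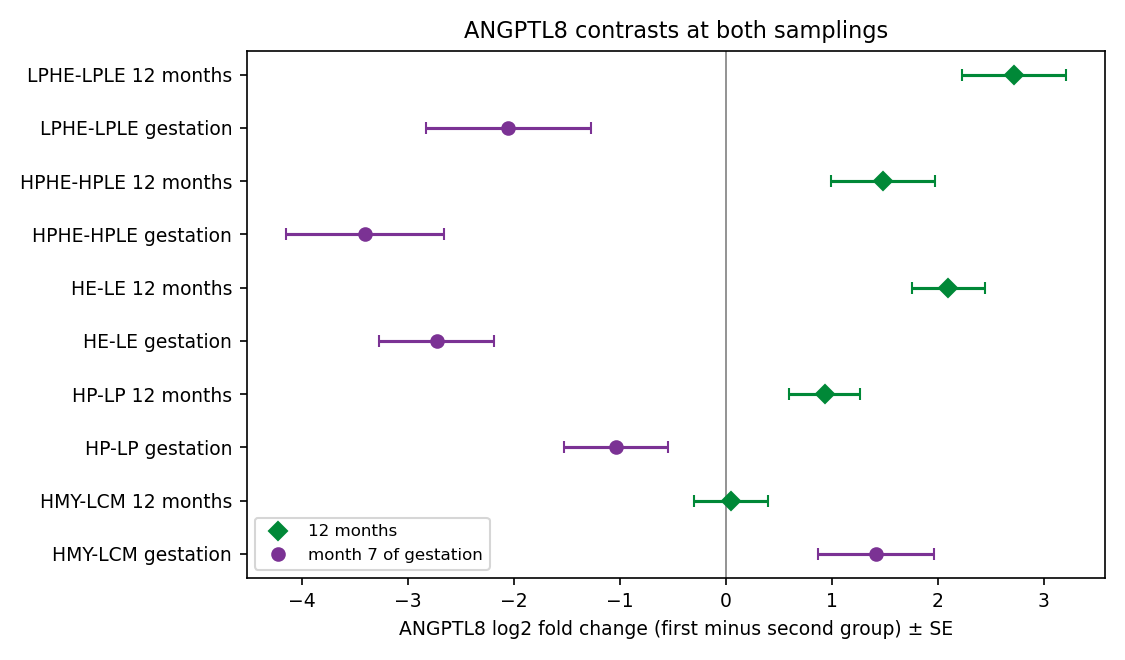
Fitted log2 fold changes of ANGPTL8 (first minus second group) with SE for contrasts of diet, energy level, protein level and genetic group, 12 months as diamonds and gestation as circles. The 3 energy contrasts lie above 0 at 12 months, where the LPHE-LPLE contrast had selected the gene, and below 0 in gestation, with HE-LE at 2.10 and -2.73.

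The change of each heifer is given next. All 6 HPHE heifers and all 6 LPHE heifers had less ANGPTL8 in gestation than at 12 months, with mean changes in log2(CPM + 0.5) of -5.87 ± 1.28 and -4.26 ± 2.39 (SD, n = 6). The smallest change among these 12 heifers was -2.13 and the largest -7.30. Among LPLE heifers the change was 0.90 ± 1.16, with higher levels in gestation in 5 of 6, and among HPLE heifers -0.59 ± 1.66, with higher levels in 2 of 6.

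Fitted across all genes, the difference between HE-LE in gestation and HE-LE at 12 months was -4.42 (SE 0.671). It was not tested, because the gene had been selected on the 12-month samples. When the 8 groups were ordered by mean log2 level, HPHE and LPHE at 12 months came first, HPLE at 12 months and LPLE and HPLE in gestation followed, then LPLE at 12 months, and LPHE and HPHE in gestation came last. Each group overlapped the next in range, so that neighbours in this order were not separated. The first and the last group, HPHE at 12 months and in gestation, had means of 8.61 ± 0.56 and 2.73 ± 1.62 on the scale of log2(CPM + 0.5) (SD, n = 6) and did not overlap.

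Averaged over the 4 diets, the fitted log2 fold change of ANGPTL8 from 12 months to gestation was -2.16 (SE 0.339), and -2.51 with the heifer as a block, so that the samples were paired. The level was lower in gestation in 17 of 24 heifers. This average contains the 12-month values on which the gene was selected and carries no test. Age, pregnancy and feed changed together between the samplings and cannot be told apart.

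Whether heifers that stood high within their diet at 12 months also stood high in gestation was examined within diets, and no relation was established over all of them. Over 24 heifers, deviations from the diet mean at the 2 samplings had a Pearson r of 0.30 (p = 0.108) and a Spearman rho of 0.36 (p = 0.0795, two-sided permutation within diet for both). Without the 2 heifers farthest from the median at 12 months, r was 0.37 (permutation p = 0.103) and rho 0.37 (p = 0.11). The permutation p of rho was 0.0173 without heifer 9, 0.0272 without heifer 12 and 0.0487 without heifer 16. All p-values of heifer ranks use levels of the 12-month samples on which the gene was selected. They were not adjusted for the number of settings.

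Between genetic groups, HMY-LCM of ANGPTL8 was 0.05 at 12 months (SE 0.349, a description). In gestation HMY-LCM was 1.42 (SE 0.548, 95% interval 0.35 to 2.49) and did not pass (FDR = 0.547, 0.0522% of genes called), with a permutation p within diet of 0.035 (0.0826 adjusted). In the same contrast the skeletal muscle marker MYH2 was at 9.94. The gestation samples with the highest summed muscle markers were those of HMY heifers 19, 17 and 11, at 342, 197 and 20.7 CPM. MYH2 passed the filter only through HMY heifers, so its value is a description with no test. Without the samples over 100 CPM of these markers HMY-LCM of ANGPTL8 was 1.56 (FDR = 0.493 in edgeR). The values of HE heifers stood out once they were divided by genetic group, which was done after the values were seen. The 6 LCM heifers fed HE had 1.31 to 12.4 CPM in gestation (median 1.92), and the 6 HMY heifers fed HE had 3.89 to 108 CPM (median 30.8). Among LE heifers the LCM and HMY levels were 26.8 to 210 and 17.2 to 219 CPM (medians 71.2 and 85.3). Whether the genetic groups differed more after HE than after LE was not tested.

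The genes of fatty acid and triglyceride synthesis differed in the same direction as ANGPTL8 in gestation. Of 13 listed genes 10 had an identifier, and 9 of these were down-regulated in HE compared with LE heifers and none up-regulated, against 2.66% of all genes called lower. Their median log2 fold change was -1.26, beside 0.01 for all genes tested. Identifiers came from the study's lists of genes that differed between energy levels at 12 months. These 10 genes are therefore not a sample of the pathway independent of that contrast. The gestation samples had no part in which genes had an identifier. The list itself was chosen with earlier results of these data known.

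The steps of the pathway were represented as follows. ACSS2, which activates acetate, had a log2 fold change of -1.47 in HE-LE in gestation (SE 0.268, FDR = 1.78e-05 in edgeR). Its mean was 1964 ± 909 CPM in LPLE and 1558 ± 753 in HPLE, beside 872 ± 663 in LPHE and 504 ± 120 in HPHE (SD, n = 6). ACLY, which forms cytosolic acetyl-CoA from citrate, was at -1.26, and ACACA, which makes malonyl-CoA, was at -1.33. FASN, the fatty acid synthase, was at -1.64 (SE 0.287, FDR = 6.92e-06 in edgeR). FASN was at 855 to 1615 CPM in HPHE heifers, and the lowest HPLE heifer had 1931 CPM. In the low-protein pair its ranges overlapped, at 683 to 6700 CPM in LPHE and 2691 to 10390 CPM in LPLE. For the other genes named here, ACSS2, ACLY and ACACA, the HPHE and HPLE ranges overlapped.

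The elongase ELOVL6 was at -1.10 and the desaturase SCD at -1.47 in the same contrast. ME1, the cytosolic malic enzyme, was at -0.70 and did not pass (FDR = 0.0829 in edgeR). For triglyceride assembly, AGPAT2 was at -1.25 and DGAT2, which adds the last fatty acid, was at -1.09. ANGPTL8, at -2.73, had a larger fitted difference than any of these enzymes.

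By diet pair, 9 of the 10 genes were lower in HPHE than HPLE, against 0.783% of all genes called lower, and 5 of 10 were lower in LPHE than LPLE, against 0.739% (FDR of 0.1). None was higher in either pair. With the quasi-likelihood F test no listed gene passed in either pair, where 0 of all genes were called. By that test 9 of 10 passed when the energy levels were pooled, where 605 of 13403 genes were called in either direction. Without heifer 7 the HPHE-HPLE count was 4, and without heifer 1 it was 5.

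**Figure D3:**
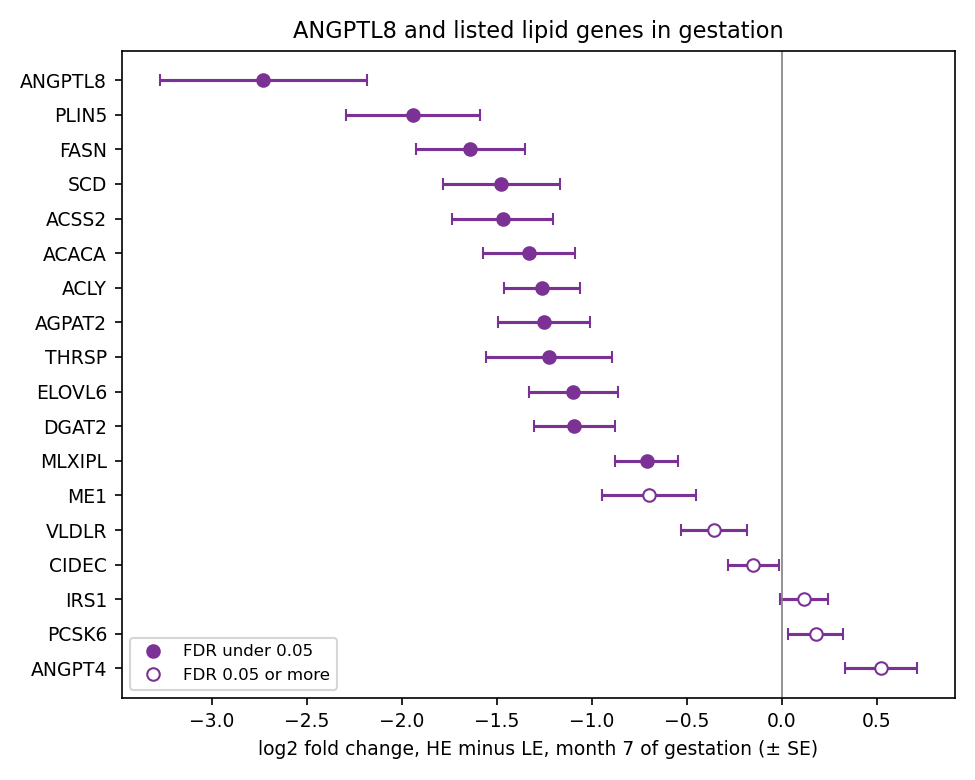
Fitted log2 fold changes (HE minus LE, month 7 of gestation, ± SE) of ANGPTL8 and of 17 of the listed lipid genes with an identifier. Filled points passed an FDR of 0.05. ANGPTL8 lies farthest from 0 at -2.73, followed by PLIN5 at -1.94 and FASN at -1.64. PLIN5 passed the expression filter mostly through LE heifers, so its point is a description.

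Of 11 insulin signalling and lipogenic regulators 3 could be matched. In HE-LE in gestation the glucose-responsive transcription factor MLXIPL (ChREBP) was at -0.71 (FDR = 0.00157). THRSP, a lipogenesis-associated nuclear protein, was at -1.22 (FDR = 0.0114 in edgeR). The insulin receptor substrate IRS1 was at 0.12 (SE 0.126) and did not pass (FDR = 0.72).

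Of 14 genes of lipolysis and the lipid droplet 2 were matched. PLIN5, a droplet coat protein, was at -1.94 (SE 0.353), with mean levels of only 0.485 CPM in HPHE and 3.65 CPM in LPLE in gestation. Its highest levels were 0.992 CPM in HPHE and 2.24 in LPHE, beside 7.73 in LPLE and 2.64 in HPLE. It thus passed the filter of 2 CPM mostly through LE heifers, and its value is a description with no test. CIDEC was at -0.15 (FDR = 0.651). Among 15 genes of lipoprotein lipase regulation and triglyceride uptake, the 2 matched were the lipoprotein receptor VLDLR at -0.35 (FDR = 0.278) and the proprotein convertase PCSK6 at 0.18 (FDR = 0.597). ANGPT4, the only matched member of 8 related angiopoietin genes, was at 0.52 (FDR = 0.0947 in edgeR). Lipoprotein lipase, ANGPTL4, the insulin receptor and SREBF1 were not analysed here.

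Over time, averaged over the 4 diets, all 10 matched genes of fatty acid and triglyceride synthesis were called lower in gestation, where 19.4% of all genes were called lower and 18% higher. Their identifiers were taken from genes that differed at 12 months, and this contrast uses the 12-month values, so nothing is read from the count. Their median log2 fold change was -1.17 beside 0.00 for all genes, with AGPAT2 at -1.72 and FASN at -1.59. PLIN5 was at -1.45, and VLDLR, PCSK6, ANGPT4 and IRS1 were at 0.44, 1.08, 0.42 and 0.47. Markers of several cell types differed between the samplings as well. LEP was at 0.54 and CIDEC at -0.30, the endothelial LYVE1 at 1.02, the fibroblast gene DCN at 0.41 and the fast muscle myosin MYH2 at -2.95, all called in the fit over all genes. Mean MYH2 was lower in gestation only in the LP diets, at 0.00845 and 0 CPM in LPHE and 4.20 and 0.0080 CPM in LPLE (12 months, gestation). It was higher in gestation in the HP diets, at 7.32 and 14.95 CPM in HPHE and 3.90 and 8.06 CPM in HPLE. No other marker of these lists was called, except MYLPF at -2.27 with the heifer as a block, whose mean was also higher in gestation in HPHE and HPLE. The part of these markers in the change of ANGPTL8 was not tested.

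Markers of cell types were set beside the gestation contrast. Neither LEP (-0.25, FDR = 0.606) nor CIDEC passed in HE-LE, and their summed level was 983 to 2342 CPM in HE and 1208 to 2800 CPM in LE heifers. Fibroblast markers (4 of 5 matched, COL1A1, COL1A2, COL3A1 and DCN) summed to 18500 to 83960 CPM in HE and 21690 to 102400 CPM in LE, and smooth muscle markers (4 of 5) to 123 to 1320 and 86.0 to 1604 CPM. Skeletal muscle markers summed to 1.37 to 342 CPM in HE and 1.35 to 197 CPM in LE. The single matched endothelial marker LYVE1 was at 31.7 to 132 and 20.0 to 94.8 CPM, and the immune marker CCL5 at 2.51 to 18.5 and 2.89 to 8.60 CPM. No marker of these lists was called in HE-LE in gestation, where 3.74% of all genes were called in either direction. With so few markers and that share, nothing is read from the absence of calls. Without the samples over 100 CPM of skeletal muscle markers, HE-LE of ANGPTL8 was -2.95 (FDR = 2.69e-05 in edgeR), and 9 of 10 fatty acid and triglyceride synthesis genes were called lower. In that fit 603 of all 13360 genes tested were called in either direction. No hepatocyte or erythroid marker could be matched.

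Heifers of the same diet, sampling and genetic group also differed in ANGPTL8, and the genes that varied most like it are given as a description. Likeness was the Pearson r of log2(CPM + 0.5), taken as deviations from the mean of diet, sampling time and genetic group, over 48 samples and 13717 genes. The points share library preparation and depth, and every pair of samples from 1 heifer shares the animal. The median r over all genes was -0.02, and 54 genes (0.394%) exceeded 0.6.

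ACSS2 came first, with r of 0.74 over all samples, 0.70 at 12 months and 0.76 in gestation. The genes after it that had a symbol were SOST, which encodes the Wnt antagonist sclerostin (0.73), the glycolytic aldolase ALDOA (0.70), ELOVL6 (0.70), PCYT2 of phosphatidylethanolamine synthesis (0.69), the sterol enzyme LSS (0.69) and BCAT2, which transaminates branched-chain amino acids (0.68). The other 3 of the 10 genes had no symbol in the sources used here. Each of the 7 named genes had r of at least 0.57 at both samplings. At the other end were FAM63A (-0.63) and SCUBE2, a secreted EGF-like protein (-0.62), besides 3 genes with no symbol.

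The 10 matched genes of fatty acid and triglyceride synthesis had r between 0.44 (ME1) and 0.74 (ACSS2), with a median of 0.64, and 8 of them exceeded 0.6. LEP was at 0.45, CIDEC at 0.31, VLDLR at 0.36 and IRS1 at 0.14. Skeletal muscle markers were between -0.08 (ACTA1) and 0.06 (MYLPF), smooth muscle markers between -0.27 (ACTG2) and -0.24 (CNN1), LYVE1 at -0.04 and CCL5 at -0.38. Fibroblast markers were between -0.13 (COL1A1) and 0.04 (COL3A1) over all samples. At 12 months they were negative, at -0.65 for COL1A2, -0.61 for COL3A1, -0.61 for COL1A1 and -0.41 for DCN, whereas in gestation they were at 0.09, 0.30, 0.07 and 0.16.

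**Figure D4:**
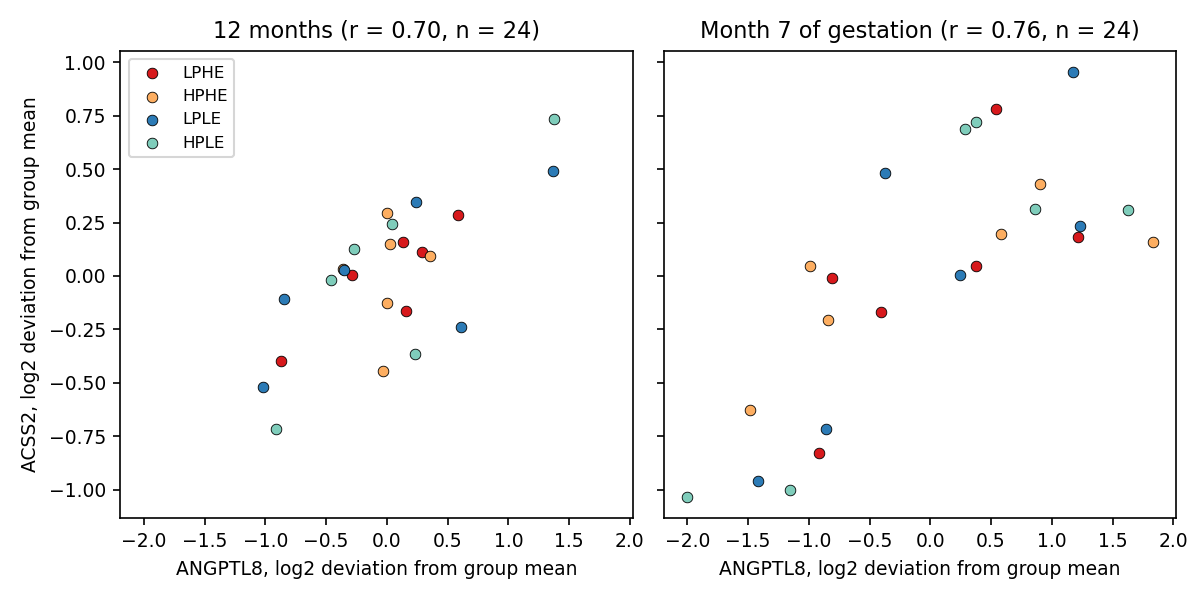
ANGPTL8 against ACSS2 in each sample at 12 months and in month 7 of gestation, both as log2 deviations from the mean of diet, sampling time and genetic group, coloured by diet. Points rise from lower left to upper right in both panels (r of 0.70 and 0.76, n = 24 samples each).

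ANGPTL8 lies within the span of DOCK6 in a later RefSeq assembly (ARS-UCD2.0), where it is a protein-coding gene. The counts were made on UMD3.1, so no coordinates are given. The library kit does not mark strand, and reads over sequence shared by both genes cannot be assigned to either. DOCK6 was not analysed here.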

How the data were processed

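Adipose biopsies of 24 heifers at 2 samplings were sequenced as 100 bp pairs. The deposited values are read counts per gene, for which the authors trimmed reads with cutadapt 1.3, aligned them to UMD3.1 with TopHat2 2.0.12 and counted with HTSeq, with no normalization. The 5 summary rows of unassigned reads were left out, which held 38.8 to 61.0% of the reads listed. Diet, sampling and genetic group came from the labels. No 2 samples of a group agreed within sampling noise (lowest chi-square per degree of freedom 40.2 over 120 pairs).

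Genes reaching 2 CPM in 3 or more samples were fitted in edgeR 4.0.16 (glmFit, TMM, tagwise dispersions, diet and genetic group) with likelihood ratio tests and Benjamini-Hochberg FDR over all genes, at 0.1 for diet pairs and the interaction and 0.05 for pooled diets and time. SE is the absolute log2 fold change divided by the root of the likelihood ratio, and 95% intervals follow from it. Samplings were fitted separately, and together for the change over time. The same animals were sampled at both times, which pairs the samples. Across genes, a heifer's deviations at the 2 samplings correlated at -0.06 to 0.58 (median 0.30, over 0.1 in 20 of 24). Levels and likeness used log2(CPM + 0.5). Alternatives were DESeq2 1.42.0, the quasi-likelihood test, other scalings and filters, and leaving out each heifer. The scripts were tested on simulated data.

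Named genes were the gene itself, the members of fixed lists that had an identifier, and the 10 genes most and 5 least like it. Identifiers were taken from the study's lists of genes differing at 12 months (1001 symbols). The values of 1 listed gene are not reported here, though list counts include it. The gene and the lists were chosen with earlier results of these data known.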

Additional observations from a re-analysis of the deposited data

Results flagged for a closer look

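In 2 of the 8 groups of 6 heifers, 1 heifer stood apart from the others in CPM by Dixon's test at the 95% level. For normally distributed values chance gives this in about 1 of 20 groups. On the log2 scale neither heifer passed, the gaps being 0.53 and 0.46 of the range for heifers 7 and 4. HPLE heifer 7 had 484 CPM of ANGPTL8 at 12 months, and the gap to the next heifer was 0.79 of the range of the group. The mean of HPLE at 12 months was 146 ± 169 CPM (SD, n = 6) with this heifer and 78.2 ± 38.4 CPM (n = 5) without it. In gestation the same heifer had 110 CPM, within the range of its group.

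LPLE heifer 4 had 126 CPM at 12 months, with a gap of 0.68 of the range, and the group mean was 50.2 ± 39.2 CPM with it and 35.0 ± 13.8 CPM (n = 5) without it. The fitted LPHE-LPLE log2 fold change at 12 months was 2.72 with heifer 4 and 3.29 without it. In gestation heifer 4 had 79.3 CPM.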

How the results depend on the processing

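The call of HE-LE in gestation held under every alternative and without each heifer, and no contrast of ANGPTL8 but those named here changed its direction or its call. By the quasi-likelihood F test HPHE-HPLE in gestation was -3.39 (FDR = 0.187), and the fatty acid and triglyceride synthesis genes called lower numbered 0 in both diet pairs. In LPHE-LPLE that count was 3 with no filter and 2 with no genetic group, and the log2 fold change of ANGPTL8 with no genetic group was -1.20. These counts, the estimateDisp dispersions and the removal of samples with muscle markers were added after the data were seen. With the heifer as a block the paired change over time was -2.51.

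Leaving out 1 heifer at a time gave -2.46 to -1.45 for LPHE-LPLE in gestation (called without heifer 18), -0.73 to 0.39 for HPLE-LPLE in gestation (positive without heifer 8), -0.24 to 0.29 for HMY-LCM at 12 months (negative without heifer 4, 5, 6, 11, 14, 15, 20 or 23), and an r of 0.25 to 0.37 for heifer ranks (permutation p of 0.0428 without heifer 9). The permutation p of rho, which like that of r was not adjusted, was under 0.05 without heifer 9, 12 or 16. The lower fatty acid genes numbered 2 to 9 in LPHE-LPLE (2 without heifer 5, 8, 10, 12, 14, 16 or 24, and 9 without 18 or 20) and 4 to 10 in HPHE-HPLE (4 without heifer 7 and 5 without heifer 1).

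Genes called numbered 141 in LPHE-LPLE in gestation, and 0 by the quasi-likelihood test, 423 by DESeq2, 71 with no genetic group, 59 with all 48 samples and 212 with only the 12 samples of the pair. HPHE-HPLE had 127, and 0 and 77 by the first and with all 48. HE-LE had 501, and 1151 by DESeq2 and 801 with estimateDisp. The remaining gestation contrasts had 0 to 25. The lowest ANGPTL8 count of a sample was 46 reads, and the 6 heifers per diet limit the precision of each contrast.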
